A study of Homo sapiens with 24 samples.

Results

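OCI-Ly7 cells exposed to trabectedin for 24 h, set against OCI-Ly7 cells exposed to the solvent DMSO for 24 h, are described here across all genes measured. The 6 arrays, 3 with trabectedin and 3 with DMSO, were taken by their titles from the 24 arrays of the series. OCI-Ly7 is an established diffuse large B cell lymphoma line of the germinal centre kind. The series measured total RNA of OCI-Ly7 and of U2932, a lymphoma line of the activated B cell kind, on Illumina bead arrays, with trabectedin or DMSO and at 8 h or 24 h, in 8 groups of 3 arrays. The labels give no dose and do not say whether the 3 arrays of a group came from separate cultures, so p-values measure only the spread between these arrays, which may be technical.

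Trabectedin is a chemotherapy drug, first found in a sea squirt, that binds guanines in the minor groove of DNA and bends the double helix. It is known to stall transcribing RNA polymerase II, to act through the repair machinery that follows such stalls, and to be used against sarcoma and ovarian cancer. Germinal centre-type lymphoma cells express B cell transcription factors such as BCL6 and EBF1, and B cell receptor signalling is a known drug target in lymphoma.

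Array brightness and chip moved with treatment. Mean probe intensity, on the linear scale of the deposited table, was 264, 257 and 183 on the trabectedin arrays, against 405, 422 and 270 on the DMSO arrays. The groups did not overlap, and the two-sided exact permutation p was 0.1, the smallest that 3 against 3 arrays can give. A probe was called detected where a share under 0.01 of 663 probes was as bright on the same array, these being probes of olfactory and taste receptors and other families that B cells do not use. The number of detected probes was 13751 ± 927 (SD, n = 3) with trabectedin and 13694 ± 528 with DMSO, with an exact permutation p of 0.9. A looser cutoff, a share under 0.05, gave 16921 ± 300 with trabectedin and 18260 ± 327 with DMSO. There the groups did not overlap, and the exact permutation p was 0.1. Array IDs in the labels place the 3 trabectedin arrays on a chip that held no other array of the series, while the DMSO arrays shared a chip with the 6 OCI-Ly7 arrays of 8 h. Chip and treatment therefore cannot be told apart within the 6 arrays. Both other responses set beside this one below, OCI-Ly7 at 8 h and U2932 at 24 h, lie within 1 chip each and share no array with it. Over all genes tested, the arrays correlated at 0.979 to 0.985 within trabectedin, at 0.964 to 0.988 within DMSO and at 0.853 to 0.905 between the groups.

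The label of a B cell line was checked against markers. Of 7 B cell markers with a probe, 6 (MS4A1, CD79A, CD79B, CD22, BLK and CD74) were detected on all 6 arrays, and the probe for PAX5 was in the background on all of them. All 6 natural killer cell markers and all 7 stromal and epithelial markers were in the background in both groups. Of the T cell markers, 7 of 8 were in the background in both groups, CD3D, CD3E and CD3G among them. Myeloid markers were in the background for 7 of 9, LYZ, CSF1R and MPO among them, with CD14 described further on and FCGR3A detected on 2 trabectedin arrays and 1 DMSO array. Erythroid and platelet markers were in the background for 6 of 7. In bulk RNA, fewer cells of a kind and less RNA per cell cannot be told apart.

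Of 8576 genes tested with limma, 2210 were higher with trabectedin (25.8%) and 2205 were lower (25.7%) at a Benjamini-Hochberg adjusted p under 0.05. Counts of list members below are to be read beside these shares of all genes. A change of at least 1 on the log2 scale, 2-fold, was called for 1017 genes higher (11.9%) and 1084 genes lower (12.6%). The median change over all genes was 0.0154 on the log2 scale, which quantile normalisation holds near 0. Scaling each array to its median instead moved the median of all genes to -0.558 and left 386 genes called higher and 3204 lower, 10.8% of the calls higher in place of 50.1%. The counts in each direction therefore rest on the scaling, and each list median of this comparison is also given relative to the median of all genes under both scalings. Of the genes named in the text, 34 were called under quantile normalisation but not under median scaling, with the same sign, and are named where they are described. The plot of every gene shows changes at all levels of intensity, narrowing only among the brightest probes.

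**Figure D1:**
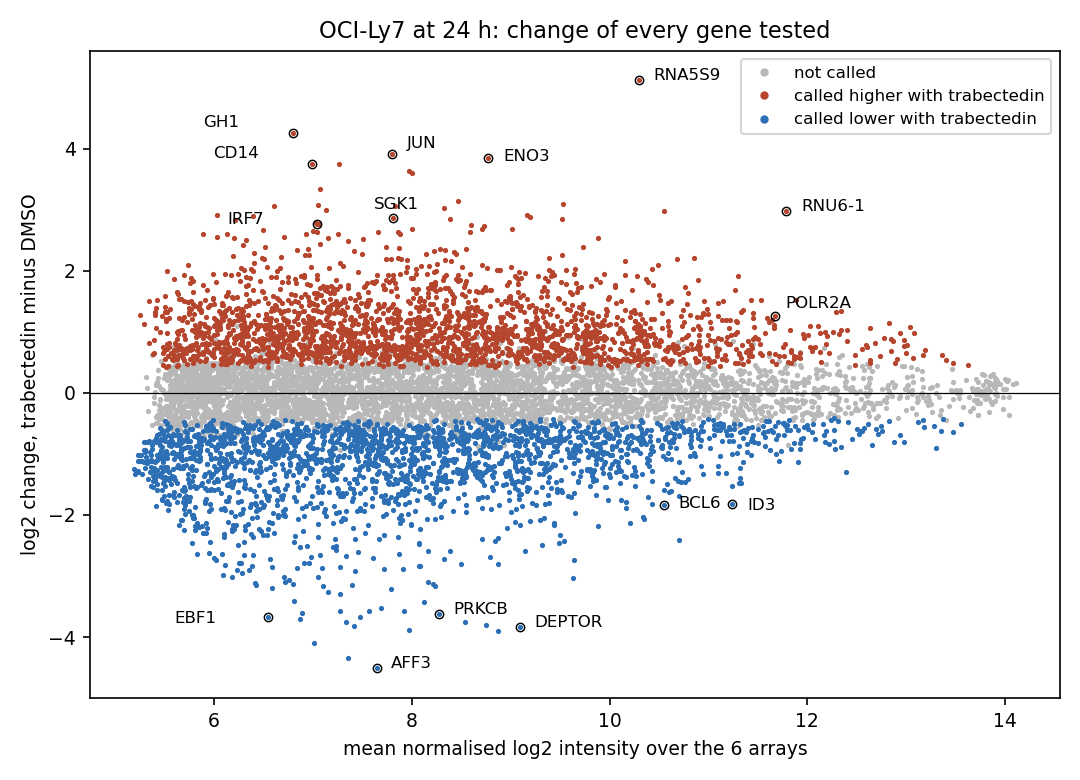
Change of each of the 8576 genes tested (log2, trabectedin minus DMSO, vertical axis) against its mean normalised log2 intensity over the 6 arrays (horizontal axis), coloured by call. RNA5S9 has the highest change, 5.12, and AFF3 the lowest, -4.51.

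Values given for arrays below are normalised log2 intensities, with the 3 trabectedin arrays and then the 3 DMSO arrays. Changes are differences of the group means on that scale, with the standard error from limma and n = 3 per group. The groups did not overlap for 5109 of the 8576 genes tested (59.6%), and for 4293 of the 4415 called genes. The 15 highest and 15 lowest changes were ranked only among called genes whose groups did not overlap. For these, RNA5S9, RPPH1, JUN, AFF3 and PRKCB among them, the lack of overlap was therefore fixed by the choice. Where no array of a group rose above background, a lower bound of the fold is given in place of a fitted change.

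Small non-coding RNAs transcribed by RNA polymerase III, or carried in the spliceosome, were among the genes that rose. RNA5S9, a 5S ribosomal RNA gene, had 12.12, 12.93 and 13.51 with trabectedin, against 7.90, 7.56 and 7.74 with DMSO. The groups did not overlap, with trabectedin higher, as its ranking required. The change was 5.12 ± 0.30 (adjusted p = 1.46e-06). RPPH1, the RNA of the ribonuclease that trims the ends of transfer RNA precursors, had 9.34, 9.98 and 10.04 with trabectedin, against 6.23, 6.04 and 6.21 with DMSO. Every trabectedin array again lay above every DMSO array, by 3.63 ± 0.21 (adjusted p = 1.46e-06). RN7SK, the 7SK RNA that holds the elongation kinase P-TEFb inactive, had 10.70, 10.91 and 11.83 with trabectedin, against 8.81, 8.52 and 8.51 with DMSO. It rose by 2.54 ± 0.27 (adjusted p = 4.06e-05), and the groups did not overlap.

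Of 12 spliceosomal small nuclear RNAs tested, 11 rose and none fell, all 11 by at least 1, with a median change of 2.62. That median was 2.61 above the median of all genes, and 2.40 above it under median scaling, where 10 were still called higher. RNU6-1, the U6 RNA at the catalytic centre of the spliceosome, had 12.97, 13.18 and 13.69 with trabectedin, against 9.99, 10.20 and 10.70 with DMSO. All 3 trabectedin arrays exceeded all 3 DMSO arrays. Its change was 2.98 ± 0.24 (adjusted p = 8.32e-06). RNU4ATAC, the U4 counterpart of the minor spliceosome, had 9.50, 10.27 and 9.63 with trabectedin, against 6.18, 6.21 and 6.21 with DMSO, a change of 3.60 ± 0.21 (adjusted p = 1.58e-06). RNU5A-1, a U5 RNA, had 7.88, 7.81 and 7.82 with trabectedin, against 4.81, 5.0 and 5.0 with DMSO. All 3 DMSO arrays were in the background, so it was at least 4.69-fold higher with trabectedin (adjusted p = 1.46e-06). RNU2-1, picked out after its values were seen as the only member not called, overlapped between the groups with a change of -0.03 ± 0.32 (adjusted p = 0.945).

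Small nucleolar RNAs, which guide chemical modification of ribosomal and spliceosomal RNA, rose widely but less. Among box H/ACA and Cajal body RNAs, 41 of 57 tested rose and 1 fell, with a median of 0.959. Among box C/D RNAs, 33 of 62 rose and 3 fell, with a median of 0.739. Relative to the median of all genes these medians were 0.943 and 0.723, and 0.805 and 0.661 under median scaling, where 14 of each were called higher. Without the detection filter, 44 of 125 and 32 of 176 were called higher, with medians of 0.479 and 0.143. SNORA74B had 6.84, 7.43 and 8.18 with trabectedin, against 4.58, 4.56 and 4.56 with DMSO, and was at least 3.67-fold higher (adjusted p = 2.25e-05), its DMSO arrays being in the background. SCARNA13, which resides in Cajal bodies, had 8.85, 9.23 and 8.85 with trabectedin, against 6.56, 6.39 and 6.09 with DMSO, a rise of 2.63 ± 0.19 (adjusted p = 5.02e-06). SNORD3A, a U3 RNA needed to cut the ribosomal RNA precursor, had 10.56, 11.03 and 11.65 with trabectedin, against 8.54, 7.8 and 7.61 with DMSO, and rose by 3.10 ± 0.30 (adjusted p = 2.36e-05). SNORD3C, a near copy of it whose RNA the probes may share, rose by 3.14 ± 0.33. SNORD84 was at least 11.6-fold higher (adjusted p = 3.13e-06) over DMSO arrays in the background. The members that fell were SNORD14D (-0.94 ± 0.26), SNORD30 (-0.91 ± 0.18), SNORD89 (-0.72 ± 0.21) and SNORA24 (-0.70 ± 0.16).

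Of the 10 ribosomal, 7S, Y, vault and RNase P or MRP RNAs, 6 rose and none fell, but 4 were called higher and 1 lower under median scaling. RNA18SN5, the 18S ribosomal RNA, had 5.60, 8.29 and 9.17 with trabectedin, against 7.51, 7.78 and 6.0 with DMSO. These arrays overlapped and spread widely, and the change of 0.59 ± 0.75 was not called (adjusted p = 0.537). RNA28SN5 and RN7SL1, the signal recognition particle RNA, were picked out after their values were seen and were not called either, at -0.24 ± 0.34 and 0.19 ± 0.16 (adjusted p = 0.579 and 0.353). Many of these genes exist in near-identical copies that 1 probe cannot tell apart. The label names a kit that, as is known of it, primes copying from poly(A) tails, so a probe for a small RNA reports only the molecules so copied. The labels state an RNA integrity number over 8. The part of ribosomal RNA, of array brightness and of chip in these rises was not tested.

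Immediate early genes encode transcription factors of the AP-1 family and their feedback regulators, which cells switch on within minutes of stress or growth signals. Of 14 tested members of the AP-1 and immediate early list, 8 rose and none fell, with a median of 0.916 (0.900 above all genes, and 0.890 under median scaling, where 4 were called higher). JUN, a core AP-1 subunit, had 9.67, 10.16 and 9.42 with trabectedin, against 6.18, 5.74 and 5.61 with DMSO. Every trabectedin array lay above every DMSO array, as its ranking required. Its change of 3.91 ± 0.23 (adjusted p = 1.57e-06) rests on 2 of 3 DMSO arrays above background. FOSB, a partner of JUN, had 8.30, 8.94 and 8.64 with trabectedin, against 6.36, 5.62 and 4.91 with DMSO, and rose by 3.0 ± 0.32 (adjusted p = 4.04e-05), also with 2 of 3 DMSO arrays detected. IER3, an early response gene that tempers cell death, had 8.37, 8.77 and 8.67 with trabectedin, against 5.97, 6.24 and 6.12 with DMSO, and rose by 2.49 ± 0.18 (adjusted p = 4.36e-06). JUNB had 6.50, 6.67 and 5.69 with trabectedin, against 5.93, 5.81 and 6.35 with DMSO. Here the groups overlapped, and the change of 0.26 ± 0.26 was not called (adjusted p = 0.434). The probes for FOS, ATF3 and EGR1 did not pass the detection filter, and 11 of the 25 members with a probe were not tested. Without that filter, 6 of the 25 were called higher and none lower, with a median of 0.368.

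Feedback regulators and other short-lived transcripts moved likewise, with 17 of 26 tested higher and 2 lower, and a median of 0.876 (0.860 above all genes, and 0.791 under median scaling, where 3 were called higher and 2 lower). SGK1, a kinase induced by stress and steroids, had 8.97, 9.35 and 9.39 with trabectedin, against 7.0, 6.39 and 5.76 with DMSO. The groups did not overlap, with trabectedin higher. It rose by 2.86 ± 0.28 (adjusted p = 2.50e-05), and all 3 of its probes were called higher. DUSP1 and DUSP5, phosphatases that switch MAP kinases off, rose by 1.09 ± 0.18 and 1.71 ± 0.26. GADD45B, a stress sensor, rose by 1.55 ± 0.23 (adjusted p = 2.80e-04). DUSP1 and GADD45B were not called under median scaling. ID3, an inhibitor of E-protein transcription factors, had 10.38, 10.31 and 10.31 with trabectedin, against 12.29, 12.12 and 12.03 with DMSO, and changed by -1.81 ± 0.16 (adjusted p = 1.48e-05), with every trabectedin array below every DMSO array. PIM3, a survival kinase, was at least 1.48-fold lower with trabectedin (adjusted p = 4.77e-04). TNFAIP3, which ends NF-kB signalling, was not called at 0.06 ± 0.17 (adjusted p = 0.771).

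**Figure D2:**
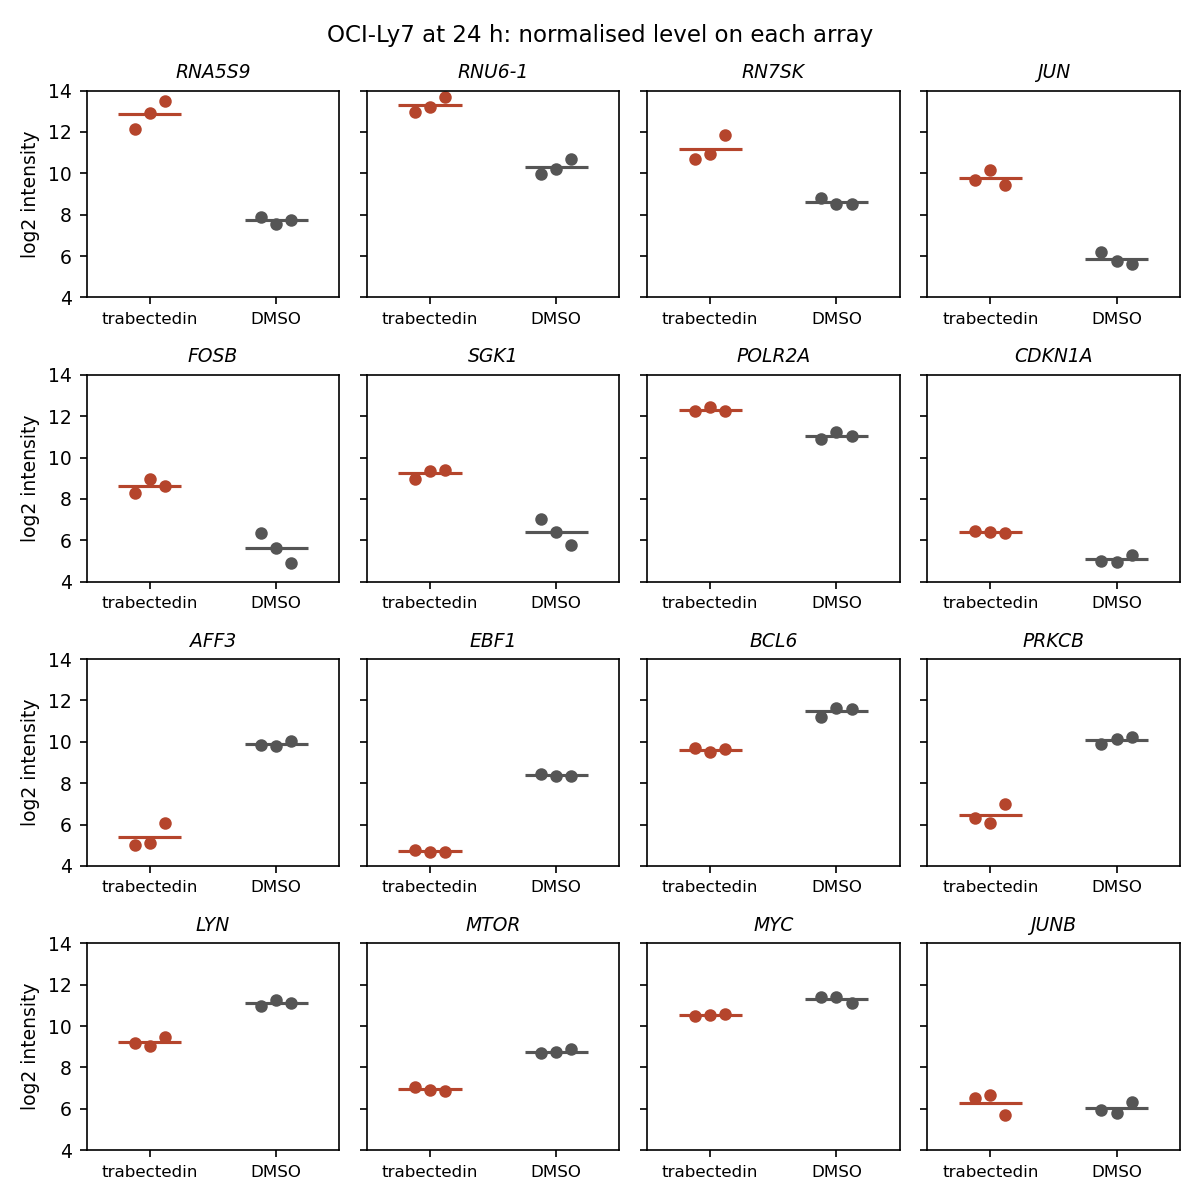
Normalised log2 intensity on each array for 16 genes, trabectedin arrays left and DMSO arrays right in each panel, with the group mean as a bar. JUN lies between 9.42 and 10.16 with trabectedin and between 5.61 and 6.18 with DMSO, while the groups overlap for JUNB.

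Promoters of 5 strongly changed genes are shown because these genes carry both ends of the response, JUN, FOSB and the histone gene H2BC3 among those that rose and the B cell factors AFF3 and EBF1 among those that fell. H2BC3 had 7.65, 8.33 and 8.40 with trabectedin, against 5.25, 5.16 and 4.82 with DMSO, and was at least 5.75-fold higher (adjusted p = 5.24e-06) over DMSO arrays in the background. Each sequence is the 250 bases before a start of the gene in RefSeq (GRCh38.p14), read 5′ to 3′ on the gene's strand. Where several starts were listed for a gene, only the first was used. Capitals mark matches on either strand to the letters of 6 motifs, and no printed matches overlap. The TATA box, which positions the start of transcription, was searched as TATAAA. The letters TGACTCA stand for the AP-1 site, to which JUN and FOS proteins bind. The cyclic AMP response element was searched as TGACGTCA, and binds proteins of the CREB and ATF families. The GC box, bound by SP proteins, was searched as GGGCGG. The octamer, bound by OCT proteins, was searched as ATTTGCAT. The box bound by the factor NF-Y was searched as CCAAT.
JUN, chr1:58784048-58784297, minus strand: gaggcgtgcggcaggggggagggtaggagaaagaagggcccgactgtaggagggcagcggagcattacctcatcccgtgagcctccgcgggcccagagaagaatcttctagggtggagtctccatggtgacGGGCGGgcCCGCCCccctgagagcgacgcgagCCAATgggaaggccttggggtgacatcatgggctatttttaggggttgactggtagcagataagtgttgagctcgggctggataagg
FOSB, chr19:45467746-45467995, plus strand: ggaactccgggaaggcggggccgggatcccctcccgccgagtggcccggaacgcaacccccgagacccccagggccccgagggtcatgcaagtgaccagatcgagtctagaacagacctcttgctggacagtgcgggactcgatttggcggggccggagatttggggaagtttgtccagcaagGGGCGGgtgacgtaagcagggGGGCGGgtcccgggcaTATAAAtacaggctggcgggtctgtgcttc
H2BC3, chr6:26043714-26043963, minus strand: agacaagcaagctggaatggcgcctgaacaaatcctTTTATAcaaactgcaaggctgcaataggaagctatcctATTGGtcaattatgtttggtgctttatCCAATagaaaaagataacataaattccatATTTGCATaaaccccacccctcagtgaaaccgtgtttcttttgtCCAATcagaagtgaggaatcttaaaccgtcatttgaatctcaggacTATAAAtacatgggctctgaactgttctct
AFF3, chr2:100142591-100142840, minus strand: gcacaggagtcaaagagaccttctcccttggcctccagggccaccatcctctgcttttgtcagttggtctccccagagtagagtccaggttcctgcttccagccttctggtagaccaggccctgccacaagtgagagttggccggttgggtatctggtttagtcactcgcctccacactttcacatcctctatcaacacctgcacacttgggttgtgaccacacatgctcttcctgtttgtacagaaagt
EBF1, chr5:159097957-159098206, minus strand: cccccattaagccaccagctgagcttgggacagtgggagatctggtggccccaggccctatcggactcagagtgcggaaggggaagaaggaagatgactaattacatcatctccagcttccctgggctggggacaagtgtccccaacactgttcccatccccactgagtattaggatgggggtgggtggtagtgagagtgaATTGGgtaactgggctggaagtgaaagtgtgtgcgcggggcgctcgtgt
FOSB and H2BC3 hold a TATA box whose first base is 30 bases before the start, and H2BC3 also holds an octamer and 3 CCAAT boxes. None of the 5 windows holds TGACTCA. The AFF3 window holds none of the 6 motifs, which says only that these letters are not in it.

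A promoter was found for 7027 of the 8576 genes tested, for 795 of the 1017 higher by at least 1 and for 914 of the 1084 lower by at least 1. Of 35116 windows listed, the first of each gene symbol was used, which left 27305. The TATA box letters stood in 7.42% of the higher, 4.81% of the lower and 5.17% of the tested genes' windows, and in 11.1% of the 27305 windows. The AP-1 site stood in 3.14%, 1.53%, 2.26% and 4.16% of the same windows. The GC box stood in 71.8%, 67.2%, 67.6% and 42.3%, and the CCAAT box in 38.9%, 33.4%, 37.3% and 33.0%. The octamer stood in 1.64%, 1.75%, 1.35% and 1.66%, and the cyclic AMP response element in 3.90%, 2.74%, 3.36% and 1.77%. Median GC content was 64.8% in the higher, 64.8% in the lower and 64.4% in the tested windows. These shares were computed after the responses were seen, and are descriptions without a test.

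Transcription factors that set B cell identity mostly fell. Of 27 tested, 22 fell and 2 rose, with a median of -1.31 (-1.33 relative to all genes, and -0.912 under median scaling, where 23 were called lower). AFF3, a partner of elongation factors that is abundant in lymphoid cells, had 5.02, 5.09 and 6.05 with trabectedin, against 9.82, 9.82 and 10.06 with DMSO. The groups did not overlap, with trabectedin lower, as its ranking required. Its change was -4.51 ± 0.26 (adjusted p = 1.46e-06), with 1 of 3 trabectedin arrays above background. EBF1, the pioneer factor that commits cells to the B lineage, had 4.76, 4.67 and 4.69 with trabectedin, against 8.45, 8.33 and 8.37 with DMSO. With all trabectedin arrays in the background it was at least 6.86-fold lower (adjusted p = 5.38e-07). TCF12, an E-protein that binds DNA beside it, was at least 4.25-fold lower (adjusted p = 1.46e-06).

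BCL6, the repressor that maintains the germinal centre state, had 9.71, 9.50 and 9.66 with trabectedin, against 11.20, 11.63 and 11.57 with DMSO. The groups did not overlap and the change was -1.84 ± 0.18 (adjusted p = 2.38e-05). IRF8 changed by -0.53 ± 0.19 (adjusted p = 0.0347) and IRF4, which drives plasma cell differentiation, was not called at -0.15 ± 0.18 (adjusted p = 0.519). The members that rose were ID2, by 1.15 ± 0.19, and PRDM1, the repressor that drives plasma cell differentiation. PRDM1 had 6.46, 5.78 and 6.52 with trabectedin, against 5.30, 4.99 and 4.80 with DMSO, and was at least 1.56-fold higher (adjusted p = 0.00125) with all DMSO arrays in the background. Neither ID2 nor PRDM1 was called under median scaling. The log2 of the summed normalised intensity of 6 plasma cell markers ranged from 12.57 to 12.86 with trabectedin and from 13.36 to 13.47 with DMSO. The brightest markers, JCHAIN and XBP1, weigh most in that sum and were lower on every trabectedin array than on any DMSO array. SDC1 was lower as well, while PRDM1 was higher, and TNFRSF17 and IRF4 overlapped between the groups.

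Components of the B cell receptor and its proximal signalling fell in 17 of 28 tested cases and rose in 2, with a median of -0.810 (-0.825 relative to all genes, and -0.575 under median scaling, where 19 were called lower). PRKCB, the protein kinase C isoform that relays receptor signals to NF-kB, had 6.33, 6.06 and 6.99 with trabectedin, against 9.91, 10.11 and 10.24 with DMSO. Every trabectedin array lay below every DMSO array, as its ranking required. Its change was -3.63 ± 0.24 (adjusted p = 2.47e-06), and all 5 of its probes were called lower. LYN, the kinase that first phosphorylates the receptor, had 9.16, 9.03 and 9.46 with trabectedin, against 10.95, 11.24 and 11.13 with DMSO, a change of -1.89 ± 0.18 (adjusted p = 2.14e-05). SYK, which docks on the phosphorylated receptor, changed by -1.25 ± 0.18 (adjusted p = 2.14e-04) and FYN, a kinase of the LYN family, by -1.82 ± 0.17 (adjusted p = 1.69e-05, 1 of 3 trabectedin arrays detected). The receptor chains moved less: CD79B changed by -0.67 ± 0.20 (adjusted p = 0.0178), while CD79A was not called at -0.34 ± 0.22 (adjusted p = 0.216). BTK was not called either, at -0.20 ± 0.18 (adjusted p = 0.361). DAPP1, an adaptor that binds phosphoinositides, rose by 1.03 ± 0.19 (adjusted p = 0.001), but was not called under median scaling. NFATC1 was called higher by its brightest probe (0.75 ± 0.20) and lower by its other tested probe, and is uncertain.

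Germinal centre lymphoma markers fell in 12 of 16 tested cases and rose in 1, BPGM, with a median of -0.876 (-0.892 relative to all genes, and -0.874 under median scaling, where 14 were called lower). RGS13, which damps chemokine signalling in germinal centre cells, had 8.53, 7.93 and 8.54 with trabectedin, against 10.35, 10.71 and 10.96 with DMSO, a change of -2.34 ± 0.23 (adjusted p = 2.24e-05). SSBP2 changed by -2.17 ± 0.22 (adjusted p = 3.18e-05). Among surface receptors and therapy targets 7 of 21 fell and 1 rose, and 8 and none under median scaling. CD37, an antibody target in lymphoma, had 8.31, 8.40 and 8.46 with trabectedin, against 9.47, 9.83 and 10.49 with DMSO, a change of -1.54 ± 0.24 (adjusted p = 4.02e-04). CD22 changed by -1.06 ± 0.33 (adjusted p = 0.0188), and CXCR5, the homing receptor of follicles, rose by 0.99 ± 0.22 but was not called under median scaling. MS4A1, which encodes CD20, was lower by its brightest probe (-0.54 ± 0.18) but a second probe was called the other way.

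The lowest changes outside these lists fell on genes of varied function. RSRC1, a splicing factor, had 4.92, 5.41 and 5.21 with trabectedin, against 9.31, 9.59 and 9.66 with DMSO, a change of -4.34 ± 0.19 (adjusted p = 5.38e-07). DEPTOR, an inhibitor of the mTOR kinase, had 7.0, 7.08 and 7.43 with trabectedin, against 10.79, 11.18 and 11.04 with DMSO, a change of -3.83 ± 0.19 (adjusted p = 6.99e-07). ADK, adenosine kinase, had 5.60, 5.07 and 5.72 with trabectedin, against 9.28, 9.26 and 9.10 with DMSO, a change of -3.75 ± 0.20 (adjusted p = 1.30e-06), with all 3 probes called lower. ELMO1, which activates RAC during engulfment and migration, was at least 10.9-fold lower, PDSS2, an enzyme of coenzyme Q synthesis, at least 8.68-fold lower and TNS3, an adhesion adaptor, at least 8.53-fold lower. ARHGAP15, LPP, FAF1, OSBPL10, ZNF385B and CUX1 changed by -3.91, -3.88, -3.82, -3.80, -3.75 and -3.67. These genes were ranked only among those whose groups did not overlap, so their lack of overlap was fixed by the choice. RSRC1, ADK, FAF1 and CUX1 were above background on 1 of 3 trabectedin arrays and LPP on 2 of 3.

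PI3K, AKT and mTOR genes fell in 9 of 24 cases and rose in 3, and in 16 and 2 under median scaling. MTOR itself had 7.07, 6.92 and 6.86 with trabectedin, against 8.67, 8.73 and 8.89 with DMSO, a change of -1.81 ± 0.17 (adjusted p = 1.55e-05). RPS6KB2, a kinase downstream of it, rose by 1.92 ± 0.25 (adjusted p = 1.36e-04), and PIK3CB was at least 2.33-fold lower. MYC, the growth regulator, had 10.46, 10.55 and 10.60 with trabectedin, against 11.42, 11.41 and 11.10 with DMSO, a change of -0.77 ± 0.17 (adjusted p = 0.00331), and the 3 trabectedin arrays all lay below the DMSO arrays. Of the MYC network and its targets 9 of 19 fell and 3 rose. Those 3 encode proteins that compete with MYC for its partner MAX: MXD4 rose by 2.60 ± 0.22 with 1 of 3 DMSO arrays detected, MNT rose by 0.79 ± 0.16, and MXD1 was at least 1.33-fold higher. MNT and MXD1 were not called under median scaling.

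Among the remaining highest changes, several genes are known chiefly from other tissues. GH1, growth hormone, had 8.71, 9.11 and 8.96 with trabectedin, against 4.68, 4.77 and 4.53 with DMSO. All DMSO arrays were in the background, and it was at least 9.97-fold higher with trabectedin (adjusted p = 5.38e-07). GH2, a near-identical gene of the same cluster that the probes may not separate, was at least 4.06-fold higher. ENO3, the muscle isoform of the glycolytic enzyme enolase, had 10.79, 10.91 and 10.39 with trabectedin, against 7.37, 6.80 and 6.37 with DMSO, a rise of 3.85 ± 0.26 (adjusted p = 2.67e-06) by both probes. CD14, the monocyte receptor for bacterial lipopolysaccharide, had 8.60, 8.67 and 9.32 with trabectedin, against 5.60, 5.0 and 4.76 with DMSO, a rise of 3.74 ± 0.26 (adjusted p = 3.40e-06) with 1 of 3 DMSO arrays above background. The log2 of the summed normalised intensity of the 9 myeloid markers with a probe ranged from 9.26 to 9.84 with trabectedin and from 8.06 to 8.13 with DMSO, LYZ, CSF1R, ITGAM, S100A8, S100A9, MPO and FCER1G being in the background throughout. ALB, serum albumin, was at least 7.89-fold higher (adjusted p = 5.20e-05), RDH5, a retinol dehydrogenase, rose by 3.06 ± 0.20, and KLHL15, a ubiquitin ligase adaptor, rose by 3.34 ± 0.24 with 1 of 3 DMSO arrays detected.

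Cytokine and chemokine genes rose in 11 of 14 tested cases and fell in 1, IL16, with a median of 0.962 (0.947 above all genes, and 1.07 under median scaling, where 4 were called higher and 1 lower). A gene silent with DMSO could enter the 14 through its trabectedin arrays alone. Without the detection filter, 9 of 37 were called higher and 2 lower, with a median of 0.102. GH1 and GH2, which the probes may not separate, are both counted among the 11 that rose. TNF, the inflammatory cytokine, had 8.23, 8.54 and 8.19 with trabectedin, against 5.88, 5.98 and 5.16 with DMSO. Every trabectedin array lay above every DMSO array, by 2.65 ± 0.23 (adjusted p = 1.21e-05), with 2 of 3 DMSO arrays detected. NF-kB genes were higher in 7 of 24 cases (29.2%, against 25.8% of all genes) and lower in 3 (12.5%, against 25.7%). Under median scaling 3 were higher and 5 lower. NFKBIZ, an inducible NF-kB cofactor, rose by 1.94 ± 0.22 (adjusted p = 6.41e-05), while the subunits NFKB1, REL and RELB changed by -1.40, -1.05 and -0.78.

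Interferon response genes rose in 13 of 29 cases and fell in 5, but 4 were called higher and 5 lower under median scaling. Their median of 0.435 was 0.420 above that of all genes, and 0.482 above it under median scaling. IRF7, the factor that amplifies interferon induction, had 8.72, 8.48 and 8.07 with trabectedin, against 5.97, 5.33 and 5.66 with DMSO, a rise of 2.77 ± 0.22 (adjusted p = 8.32e-06) with 1 of 3 DMSO arrays detected. IRF1 had 9.52, 9.68 and 9.54 with trabectedin, against 8.09, 7.86 and 5.98 with DMSO, a rise of 2.27 ± 0.44 (adjusted p = 0.00145), with 1 DMSO array far below the other 2. ISG15, a ubiquitin-like modifier, rose by 1.06 ± 0.19, and OAS1, an RNA sensor, changed by -1.22 ± 0.17. MHC class II genes showed 2 of 15 higher and 3 lower, and none and 4 under median scaling, HLA-DMA rising by 1.10 ± 0.19 and RFXAP changing by -1.05 ± 0.22. Neither CIITA, their master regulator (-0.23 ± 0.27, adjusted p = 0.495), nor HLA-DRA (0.08 ± 0.16, adjusted p = 0.719) was called, and ISG15 and HLA-DMA were not called under median scaling.

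Replication-dependent histone genes, whose messages normally lack poly(A) tails, rose in 15 of 28 tested cases and fell in 1, H4C12, with a median of 0.668 (0.653 above all genes, and 0.616 under median scaling, where 7 were called higher). Without the detection filter, 17 of 61 were called higher and none lower, with a median of 0.112. H2AC17 had 7.76, 8.29 and 8.35 with trabectedin, against 5.93, 5.65 and 5.73 with DMSO, a rise of 2.36 ± 0.20 (adjusted p = 1.05e-05). H2BC5 rose by 2.16 ± 0.19 (adjusted p = 1.27e-05). Histone genes are similar in sequence, and a probe may report several. Lysosome and autophagy genes rose in 16 of 28 cases and fell in 4, with a median of 0.703 (0.688 above all genes, and 0.570 under median scaling, where 6 were called in each direction). ULK1, the kinase that starts autophagy, had 9.67, 9.60 and 9.45 with trabectedin, against 7.94, 7.18 and 6.69 with DMSO, a rise of 2.30 ± 0.27 (adjusted p = 7.93e-05). CTSB, a lysosomal protease, rose by 1.98 ± 0.23 and ATP6AP1, a proton pump subunit, by 2.09 ± 0.25. UVRAG and ATG7, of the autophagosome machinery, were at least 6.47-fold and 2.03-fold lower.

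Zinc finger genes with ZNF symbols, mostly repressors, were called higher in 108 of 241 cases and lower in 17, but in 15 and 38 under median scaling. Their median of 0.461 was 0.446 above that of all genes, and 0.437 above it under median scaling. ZNF223 had 10.34, 10.40 and 10.72 with trabectedin, against 8.56, 8.04 and 8.22 with DMSO, a rise of 2.21 ± 0.20 (adjusted p = 1.27e-05). Long non-coding RNAs were called higher in 16 of 34 cases and lower in 3, but in 6 and 7 under median scaling. SNHG9, a host of small nucleolar RNA, rose by 1.92 ± 0.19 (adjusted p = 3.00e-05).

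**Figure D3:**
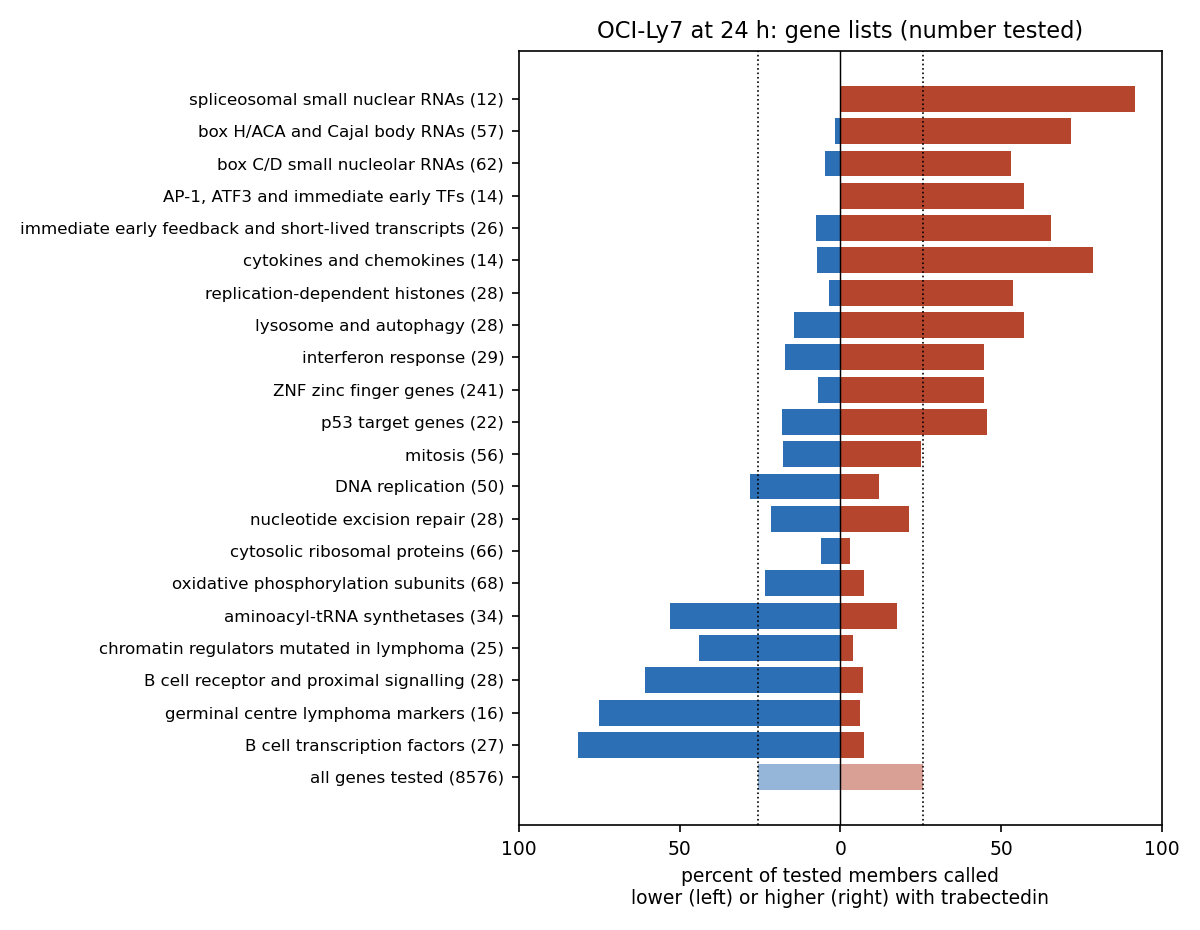
Percent of the tested members of 21 gene lists called higher (right) or lower (left) with trabectedin in OCI-Ly7 at 24 h, with the number tested in brackets. Dotted lines mark the shares over all 8576 genes, 25.8% higher and 25.7% lower, which the spliceosomal RNAs exceed on the right and the B cell transcription factors on the left.

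The transcription machinery did not move as 1 group. Over all genes, 25.8% were higher and 25.7% lower. Among 19 RNA polymerase II subunits and assembly factors 3 rose (15.8%) and 2 fell (10.5%), but none and 6 under median scaling. POLR2A, the largest subunit, had 12.23, 12.45 and 12.25 with trabectedin, against 10.89, 11.21 and 11.04 with DMSO. The groups did not overlap, with trabectedin higher. It rose by 1.26 ± 0.17 (adjusted p = 1.74e-04), but was not called under median scaling. Initiation and elongation factors rose in 10 of 37 cases (27.0%) and fell in 9 (24.3%), near the shares of all genes, but in 2 and 10 under median scaling. HEXIM1, which with 7SK RNA inhibits P-TEFb, was at least 1.35-fold higher (adjusted p = 1.53e-04), MEPCE, the enzyme that caps 7SK, rose by 1.46 ± 0.20 and CDK9, the P-TEFb kinase, by 0.97 ± 0.21. None of these 3 was called under median scaling. LARP7, which binds the end of 7SK, was picked out after its value was seen and changed by -1.02 ± 0.17 (adjusted p = 5.25e-04). GTF2F2, a subunit of the initiation factor TFIIF, had 8.52, 8.07 and 8.73 with trabectedin, against 10.19, 10.35 and 10.24 with DMSO, a change of -1.82 ± 0.20 (adjusted p = 4.65e-05). RNA polymerase I and III subunits rose in 6 of 29 cases and fell in 9, and in none and 10 under median scaling. POLR3B, the second-largest subunit of RNA polymerase III, had 6.59, 6.10 and 6.42 with trabectedin, against 8.86, 8.61 and 8.55 with DMSO, a change of -2.30 ± 0.19 (adjusted p = 8.87e-06), while POLR1F of RNA polymerase I rose by 1.40 ± 0.24 but was not called under median scaling.

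DNA repair lists stood near or below the background shares. Nucleotide excision repair genes rose in 6 of 28 cases and fell in 6, but in 1 and 11 under median scaling. ERCC2, a helicase of the repair and transcription factor TFIIH, had 7.26, 7.44 and 7.19 with trabectedin, against 5.73, 5.25 and 5.27 with DMSO, a rise of 1.88 ± 0.19 (adjusted p = 2.93e-05) with 1 of 3 DMSO arrays detected. XPC, the damage sensor, rose by 0.87 ± 0.18 (adjusted p = 0.0022) and ERCC5, the nuclease that cuts beside the lesion, by 0.55 ± 0.17 (adjusted p = 0.0168), though neither was called under median scaling. MNAT1, a TFIIH kinase subunit, was at least 6.37-fold lower (adjusted p = 1.77e-06), and RAD23B, a partner of XPC, changed by -1.41 ± 0.21. Homologous recombination and Fanconi genes rose in 6 of 23 cases and fell in 5, but in none and 7 under median scaling, EXO1 rising by 1.05 ± 0.18 (not called under median scaling) and WRN changing by -1.10 ± 0.22. Checkpoint genes rose in 3 of 22 cases and fell in 2, but in none and 10 under median scaling. NBN and CHEK2, the 2 that fell, changed by -1.81 and -0.79. XRCC5, an end-joining subunit, had 7.61, 7.40 and 7.87 with trabectedin, against 10.07, 10.17 and 9.91 with DMSO, a change of -2.42 ± 0.18 (adjusted p = 5.33e-06).

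Targets of p53 rose in 10 of 22 cases and fell in 4, but in 2 and 6 under median scaling. Their median of 0.444 was 0.429 above that of all genes, and 0.311 above it under median scaling. Without the detection filter, 8 of 33 rose and 4 fell, with a median of 0.041. MDM4, FBXW7 and RRM2B were among those that fell, and the lowest change of the list was -2.22. MDM2 was not tested. CDKN1A, the cell cycle inhibitor p21, had 6.45, 6.39 and 6.37 with trabectedin, against 5.0, 4.94 and 5.29 with DMSO, and was at least 1.74-fold higher (adjusted p = 1.26e-04). PMAIP1, the cell death activator NOXA, had 10.39, 10.50 and 10.78 with trabectedin, against 9.04, 8.68 and 8.56 with DMSO, a rise of 1.80 ± 0.19 (adjusted p = 4.18e-05) by both probes. BBC3, the activator PUMA, was not called at 0.12 ± 0.25 (adjusted p = 0.723), and was -0.39, also not called, under median scaling. Of the other BCL2 family members, BCL2L11, or BIM, rose by 0.94 ± 0.18, MCL1 rose by 0.87 ± 0.18 by 1 of its 2 probes and BCL2L1 was not called at -0.47 ± 0.28 (adjusted p = 0.177). The family as a whole showed 5 of 16 higher and 3 lower, but 1 higher and 5 lower under median scaling, where neither BCL2L11 nor MCL1 was called. TNFRSF10B, a death receptor, rose by 0.69 ± 0.22 (adjusted p = 0.0211), though not under median scaling. BIRC5, or survivin, had 11.62, 11.54 and 11.35 with trabectedin, against 10.32, 10.04 and 9.80 with DMSO, a rise of 1.45 ± 0.19 (adjusted p = 1.32e-04) by both probes.

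Cell cycle lists showed calls in both directions. Mitosis genes rose in 14 of 56 cases and fell in 10, with a median of 0.0195 (0.00413 above all genes, and -0.0454 relative to them under median scaling, where 1 was called higher and 17 lower). KIF2C, a microtubule depolymerase, had 10.46, 10.30 and 10.17 with trabectedin, against 9.66, 9.02 and 8.67 with DMSO, a rise of 1.19 ± 0.24 (adjusted p = 0.00194). NEK2 rose by 1.10 ± 0.18, while SGO1, the guardian of chromatid cohesion, changed by -0.87 ± 0.18. CDK1 rose by 0.62 ± 0.20 (adjusted p = 0.0211) and its cyclin CCNB1 changed by -0.55 ± 0.19 (adjusted p = 0.0301). KIF2C, NEK2 and CDK1 were not called under median scaling. Replication genes fell in 14 of 50 cases and rose in 6, and in 24 and 1 under median scaling. CDT1, the licensing factor, had 10.96, 10.73 and 10.70 with trabectedin, against 9.92, 8.76 and 8.12 with DMSO, a rise of 1.86 ± 0.36 (adjusted p = 0.00151), and the DMSO arrays spread more than the trabectedin arrays. POLA1, the priming polymerase, changed by -2.08 ± 0.22 (adjusted p = 4.11e-05) and RRM2, a ribonucleotide reductase subunit, by -1.55 ± 0.19 (adjusted p = 9.85e-05). Among G1 genes 10 of 26 rose (38.5%) and 8 fell (30.8%), but 2 and 10 under median scaling. CDKN2D and CDKN1B, inhibitors of cyclin-dependent kinases, rose by 1.52 ± 0.18 and 1.15 ± 0.18 (neither called under median scaling), CDK6 changed by -2.23 ± 0.28, and RB1, the retinoblastoma gene, was at least 5.32-fold lower.

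Cytosolic ribosomal protein genes rose in 2 of 66 cases and fell in 4, with a median of 0.0283 (0.0129 above all genes), RPL37 rising by 1.09 ± 0.21 (not called under median scaling) and RPL29 changing by -1.43 ± 0.19. Relative to all genes their median was 0.664 under median scaling, where 6 were called lower and none higher. Aminoacyl-tRNA synthetases, which load transfer RNAs, fell in 18 of 34 cases and rose in 6, with a median of -0.602 (-0.618 relative to all genes, and -0.546 under median scaling, where 23 were called lower). FARS2 and LARS2, mitochondrial members, were at least 5.28-fold and 2.71-fold lower, while HARS1 rose by 1.38 ± 0.18 but was not called under median scaling. Chromatin regulators mutated in lymphoma fell in 11 of 25 cases and rose in 1, CHD2, with a median of -0.381 (-0.397 relative to all genes, and -0.392 under median scaling, where 15 were called lower and CHD2 was not called). KMT2C and KDM6A, a histone methyltransferase and a demethylase, were at least 2-fold and 2.22-fold lower. SMARCB1, a core subunit of the SWI/SNF remodeller, had 9.05, 9.12 and 9.41 with trabectedin, against 10.30, 10.85 and 11.06 with DMSO, a change of -1.54 ± 0.22 (adjusted p = 2.28e-04).

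Beside shares of 25.8% higher and 25.7% lower over all genes, glycolysis and hypoxia genes rose in 10 of 32 cases (31.2%) and fell in 7 (21.9%). Under median scaling 2 rose and 8 fell. Sterol and fatty acid synthesis genes rose in 7 of 22 cases and fell in 4, but in none and 6 under median scaling. Integrated stress response genes rose in 5 of 26 cases and fell in 8, and in 1 and 12 under median scaling. DDIT3, the death-promoting factor CHOP, rose by 0.74 ± 0.23 (adjusted p = 0.0183) and PPP1R15A, which restores translation, by 1.37 ± 0.26, while the serine synthesis enzymes PSPH and PSAT1 changed by -2.33 and -1.75. Neither DDIT3 nor PPP1R15A was called under median scaling. Heat shock and chaperone genes rose in 9 of 31 cases and fell in 7, but in 3 and 11 under median scaling, HSPA1A rising by 1.66 ± 0.24 with 1 of 3 DMSO arrays detected and HSPA5, the chaperone BiP, changing by -1.01 ± 0.24. Antioxidant genes rose in 7 of 21 cases and fell in 2, but in 4 and 6 under median scaling, SQSTM1 rising by 1.84 ± 0.28 and GPX1 by 1.76 ± 0.18. HMOX1 was not called at 0.40 ± 0.17 (adjusted p = 0.0668). Oxidative phosphorylation subunits fell in 16 of 68 cases (23.5%) and rose in 5 (7.35%), and in 22 and 1 under median scaling, with ATP5MK highest, by 2.60 ± 0.18. Genes often used as loading controls were not all stable: GUSB rose by 1.32 ± 0.16, PPIA by 0.48 ± 0.17 (-0.25 and not called under median scaling), and ACTB and GAPDH changed by -0.90 and -0.43 (adjusted p = 9.54e-04 and 0.04995). GUSB and GAPDH were not called under median scaling.

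Because the chip is confounded with treatment, the genes that changed by at least 1 were followed in both other responses, which lie within single chips. OCI-Ly7 at 8 h had 2646 genes higher (30.9%) and 2904 lower (33.9%), and U2932 at 24 h had 3248 higher (37.9%) and 4086 lower (47.6%). Of the genes higher by at least 1 and measured there, 614 of 963 (63.8%) were also called higher in OCI-Ly7 at 8 h and 66 were called lower. In U2932 at 24 h 837 of 928 (90.2%) were called higher and 52 lower. Of the genes lower by at least 1, 866 of 1060 (81.7%) were called lower in OCI-Ly7 at 8 h and 44 higher, and 972 of 1013 (96.0%) were called lower in U2932 at 24 h and 20 higher. JUN changed by 1.23 ± 0.34 at 8 h, and in U2932 it was detected on all 3 trabectedin arrays and on no DMSO array. RNA5S9 changed by 2.78 ± 0.24 at 8 h and by 4.61 ± 0.07 in U2932, and BCL6 by -1.30 ± 0.17 and -1.85 ± 0.07. AFF3 and EBF1 changed by -4.20 ± 0.32 and -3.0 ± 0.29 at 8 h, each with 1 of 3 trabectedin arrays above background, and both were in the background on all 3 U2932 trabectedin arrays. PRKCB changed by -0.37 ± 0.15 at 8 h and by -1.56 ± 0.07 in U2932. The 24 h change in OCI-Ly7 differed from these by -3.26 ± 0.30 and -2.07 ± 0.27, both called in the tests of the difference (adjusted p = 3.07e-05 and 2.23e-05).

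**Figure D4:**
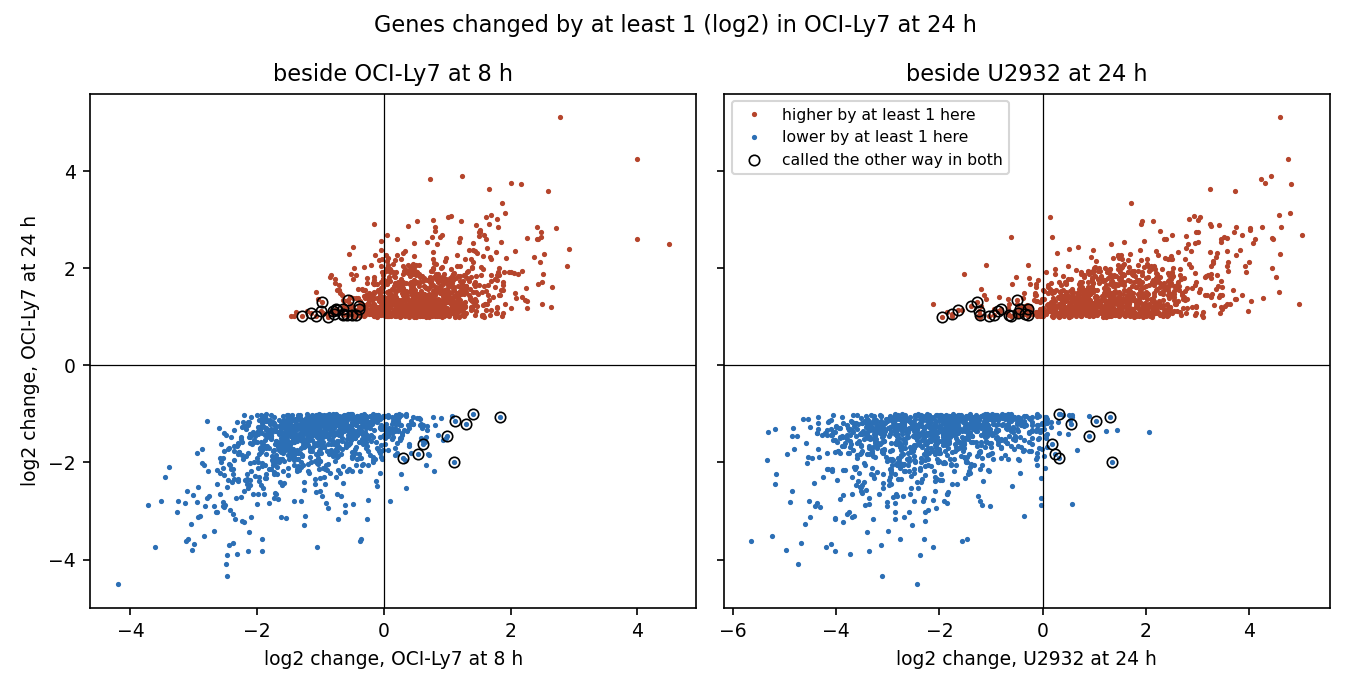
Log2 change in OCI-Ly7 at 24 h (vertical axis) of genes changed there by at least 1, against their log2 change in OCI-Ly7 at 8 h (left) and in U2932 at 24 h (right). Circles mark the 19 higher and 9 lower genes that were called the other way in both.

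The 24 h response of OCI-Ly7 differed from its own 8 h response for 3095 of 8576 genes (36.1%) and from the 24 h response of U2932 for 5036 (58.7%), in tests of the difference itself. Mitosis genes differed in 26 of 56 cases from the 8 h response and in 46 from U2932: 35 were lower at 8 h and 46 lower in U2932, against 10 lower at 24 h in OCI-Ly7. Their medians were 0.0195 in OCI-Ly7 at 24 h, -0.482 at 8 h and -1.08 in U2932. Box C/D RNAs differed from U2932 in 49 of 62 cases, with medians of 0.739 in OCI-Ly7 and 2.00 in U2932. Spliceosomal RNAs had medians of 2.62, 1.48 and 3.55 in OCI-Ly7 at 24 h, OCI-Ly7 at 8 h and U2932, and B cell transcription factors of -1.31, -0.951 and -1.94. Feedback regulators differed from the 8 h response in 15 of 26 cases, with medians of 0.876 at 24 h and 0.209 at 8 h. The 8 h and 24 h arrays with trabectedin lie on different chips, and chip and time cannot be told apart in the first difference, nor chip and line in the second.

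**Figure D5:**
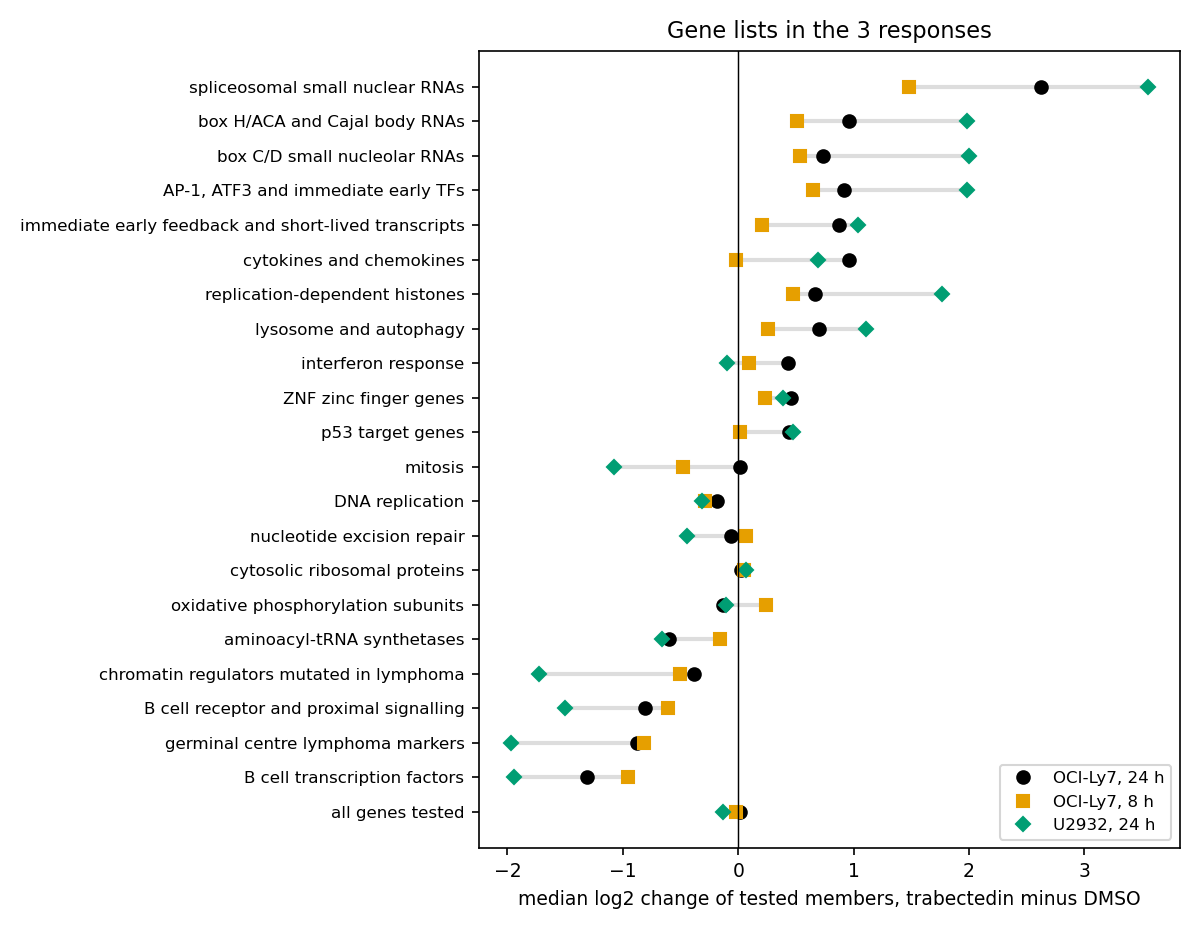
Median log2 change of the tested members of 21 gene lists, and of all genes tested, in OCI-Ly7 at 24 h (circles), OCI-Ly7 at 8 h (squares) and U2932 at 24 h (diamonds). For mitosis genes the medians are 0.0195, -0.482 and -1.08.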

How the data were processed

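Total RNA was amplified with the Ambion TotalPrep kit and read on Illumina bead arrays, per the labels. The deposited table of bead intensities, made by the authors without normalisation, was used, and the authors' deposited log2 table served only as a check: it equalled log2 of the quantile-normalised intensities. Neither table gives bead counts, so the number of arrays limits the precision. Intensities were background-corrected (limma's normexp, from the 663 silent-family probes), an offset of 16 was added, and log2 values were quantile-normalised over 24 arrays. Of 47231 probes, 30113 carry 1 gene symbol, 8 several and 17110 none. Probes detected on at least 3 of the 6 arrays were kept, and a gene was represented by its brightest probe.

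Groups were compared with limma 3.58.1 in R 4.3.3 (lmFit, eBayes, two-sided), the spread coming from the 6 arrays compared, with Benjamini-Hochberg adjustment over all 8576 genes. Differences between responses were fitted as interaction contrasts over 12 arrays. Single values per array were compared by exact permutation tests. A bound on a fold sets the bright group's mean against the dimmest detected signal, or the dim probe's own where higher. The steps were tested on simulated data. Figures were drawn with matplotlib 3.10.9 in Python 3.11.15.

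The genes named are the 15 highest and 15 lowest called, up to 3 called members at each end of each of 48 gene lists, 60 key genes, the 8 highest and 8 lowest differences of each interaction, and cell type markers, and others are said to be picked out afterwards. The 15 highest and 15 lowest were ranked only among called genes detected on every array of either group and not overlapping between the groups. The members and lists were chosen with earlier results of these data known. Same-numbered arrays deviated from their group means with correlations of 0.239, -0.0797 and -0.0485, so replicate numbers were not taken as pairs. Alternatives covered background correction, offset, scaling, filter, probe choice, source of the spread, array weights, the replicate number and leaving out each array.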

Additional observations from a re-analysis of the deposited data

Results flagged for a closer look

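Responses that differed between 24 h and 8 h in OCI-Ly7, by the interaction test over the 12 OCI-Ly7 arrays, were singled out where the difference (24 h response minus 8 h response, log2) was among the 8 highest or 8 lowest. The highest were ENO3 at 3.12, DPP7 at 3.07, HPCAL1 at 2.96, JSRP1 at 2.92, ULK1 at 2.85, CDT1 at 2.70, JUN at 2.68 and WASHC1 at 2.67. The lowest were PRKCB at -3.26, STX8 at -3.21, RNA18SN5 at -3.20, MAZ at -3.10, RPL36A at -2.97, PKMYT1 at -2.91, NDUFAF2 at -2.90 and ACYP2 at -2.90. CDT1 changed by 1.86 ± 0.36 at 24 h and by -0.83 ± 0.14 at 8 h. HPCAL1 was not called at 24 h (0.22 ± 0.23, adjusted p = 0.465 by limma) and changed by -2.74 ± 0.25 at 8 h. JSRP1 was detected on 2 of 3 DMSO arrays at 24 h. On the 24 h DMSO arrays, each of the 8 highest fell from replicate 1 to replicate 3. Of the lowest, PRKCB, MAZ, PKMYT1, NDUFAF2 and ACYP2 rose in that order, while STX8, RNA18SN5 and RPL36A did not rise steadily. The part of this drift in the differences was not tested. Time and chip cannot be told apart in these differences.

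Between the lines at 24 h, the highest differences (OCI-Ly7 response minus U2932 response, log2) were ZNF215 at 4.67, HPCAL1 at 4.14, SCAMP1 at 4.12, PVRIG at 3.97, STAMBPL1 at 3.87, ECT2 at 3.83, RUBCNL at 3.78 and C2CD5 at 3.78. All 8 of these genes were in the background on the U2932 trabectedin arrays, so their differences are fitted values and not measured sizes. The lowest were RNA18SN5 at -6.71, SNORD46 at -3.70, ZNF679 at -3.67, TSC22D3 at -3.58, SORBS2 at -3.44, RB1 at -3.44, MAZ at -3.34 and MIR25 at -3.30. RB1 was in the background on all 3 OCI-Ly7 trabectedin arrays and SORBS2 on all 3 U2932 DMSO arrays, so these 2 differences are fitted values and not measured sizes. SNORD46 was not called under median scaling in OCI-Ly7 at 24 h. RNA18SN5 changed by 0.59 ± 0.75 in OCI-Ly7 and by 7.30 ± 0.08 in U2932.

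Among 17118 probes without a single gene symbol, which entered no comparison, 103 were detected on all 3 trabectedin arrays and on no DMSO array. Another 96 were detected on all 3 DMSO arrays and on no trabectedin array. For the 30113 probes with a single gene symbol, the same counts were 204 and 488.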

How the results depend on the processing

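Scaling each array to its median in place of quantile normalisation moved the counts most: 386 genes were called higher, 236 were called higher by at least 1, and 2465 were called lower by at least 1, the cause of which was not tested. Of the 4415 calls, 2545 were kept under it. Without background correction, which compresses the scale, 494 genes were higher and 522 lower by at least 1. Under median scaling the sign turned for BPGM (-0.17), ERCC5 (-0.23), NFATC1 (-0.043), PPIA (-0.25), TNFRSF10B (-0.11) and TSC22D3 (-0.046), none of them called there. BBC3, not called under either, also changed sign (-0.39). A further 34 named genes lost their call under median scaling with the same sign, and 5 gained one. With the mean of a gene's probes it turned for MS4A1 (0.041) and NFATC1 (-0.26), whose probes disagree. Leaving out each array in turn gave 1685 to 2195 genes higher, 1699 to 2156 lower, 930 to 1152 higher by at least 1 and 1009 to 1158 lower by at least 1, with the lowest counts of all calls without DMSO replicate 2. The same left 2391 to 3467 genes differing between 24 h and 8 h, and 4556 to 5207 between the lines. With the replicate number as a block, 2210 genes were higher and 2177 lower, and 4239 of the 4415 calls were kept. The other alternatives kept each count within 1.5 times. These counts are over all genes, and list medians moved more without the detection filter. There the medians were 0.42 for feedback regulators, 0.187 for interferon response genes, 0.16 for ZNF genes and 0.0321 for long non-coding RNAs. The dimmer trabectedin arrays, the single chip they share and probes near background limit the precision of low genes.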

Other observations

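Of 906 genes higher by at least 1 in OCI-Ly7 at 24 h and measured in both other responses, 556 (61.4%) were called higher in both and 19 (2.10%) lower in both. Of 998 genes lower by at least 1, 797 (79.9%) were called lower in both and 9 (0.902%) higher in both. The genes named next were picked out after their values were seen. MAZ, a zinc finger activator, had 5.29, 5.99 and 5.67 with trabectedin, against 6.88, 7.57 and 8.48 with DMSO, a change of -1.99 ± 0.34 with 1 of 3 trabectedin arrays detected, against 1.10 ± 0.18 in OCI-Ly7 at 8 h and 1.34 ± 0.07 in U2932. OGG1, a glycosylase of base excision repair, had 7.23, 7.77 and 7.15 with trabectedin, against 8.77, 9.14 and 9.70 with DMSO, a change of -1.82 ± 0.26, against 0.55 ± 0.14 and 0.24 ± 0.05. CCDC106 had 10.95, 10.54 and 10.998 with trabectedin, against 10.22, 9.46 and 8.76 with DMSO, a change of 1.35 ± 0.31, against -0.56 ± 0.13 and -0.49 ± 0.06. MED16, a Mediator subunit, had 10.54, 10.08 and 10.32 with trabectedin, against 9.83, 8.79 and 8.40 with DMSO, a change of 1.31 ± 0.31, against -0.97 ± 0.14 and -1.28 ± 0.06. CCDC106 and MED16 were not called under median scaling. For each gene named here, the DMSO arrays moved away from the trabectedin values from replicate 1 to replicate 3. The same order held for other genes described above, such as ENO3, FOSB, SGK1, ULK1, CDT1, KIF2C and CD37. It did not hold for others, such as IER3, BCL6 and LYN. The part of this drift in the reversals and in the other changes was not tested. Chip and treatment cannot be told apart for the values at 24 h in OCI-Ly7.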
